A study of Mus musculus with 3 samples.

Results

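Axons of olfactory sensory neurons that express the same odorant receptor gather in shared glomeruli of the olfactory bulb, and cell surface molecules of the immunoglobulin superfamily take part in sorting them. The genes described here are 10 such adhesion molecules: Kirrel, Kirrel2, Kirrel3, Ncam1, Ncam2, L1cam, Nrcam, Nfasc, Cntn4 and Alcam. They were taken by name from the 34617 gene rows of the deposited table, and each of the 10 names had 1 row.

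The proteins carry immunoglobulin domains outside the cell and mostly bind a copy of themselves or a relative on a neighbouring membrane, so that axons with like proteins adhere. Kirrel2 and Kirrel3 are known in the mouse for patchy, largely complementary expression among olfactory neurons that follows the activity evoked through the receptor pathway. Ncam2, also called OCAM, marks axons of part of the epithelium, and Cntn4, also called BIG-2, is present on subsets of glomeruli.

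RNA was measured in 2 libraries of sorted cells from the main olfactory epithelium of 4-week-old mice, 1 library per group. The O/Tet3 library came from mice of strain Fvb carrying OMP-tTA, which drives expression in cells that use the Omp promoter, and the responder tetO-Tet3-GFP, which supplies Tet3, an enzyme that oxidises 5-methylcytosine. The mOSN library came from OMP-ires-EGFP positive cells of C57BL/6J mice and represents mature olfactory sensory neurons. Omp is used mainly by mature olfactory neurons; which cells expressed the transgene was not analysed here. The marker used to sort the O/Tet3 cells and the number of mice behind each library are not given in the sources used here. Strain and genotype differ together between the libraries and cannot be told apart, and no test, SD or p-value was possible. Both groups carry a construct at or driven from Omp. The remaining sample, DNA enriched for 5-hydroxymethylcytosine, was not analysed here.

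The Tet3 row was at a value of 145 in O/Tet3 and 3.72 in mOSN, which goes with the labels. A value here is the deposited number with its logarithm undone, and a log2 ratio is O/Tet3 over mOSN of value + 1. The linear unit is not named, but low rows moved in whole-number steps, so that the worth of 1 read could be read from them: it was 1.89-fold larger in O/Tet3 than in mOSN. In odorant receptor genes 1 read was worth about 0.0501 in O/Tet3 and 0.0266 in mOSN. Other rows that kept the same ratio had mOSN values as small as 0.00382, below the worth of a receptor read, as values scaled to transcript length would. Messages of the adhesion genes are longer than those of receptors, so the reads given below, computed at the worth of a receptor read, are low estimates. The 95% intervals computed from them (exact, Clopper-Pearson) are correspondingly wide. They cover counting error only, since PCR copies were not marked and no second library shows the biological spread.

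Promoter sequences are shown for Kirrel, Kirrel2, Ncam2 and Cntn4, which were lower in O/Tet3, and for Alcam, which was not, because the study concerns a modification of cytosine and these windows show where each promoter holds CpG, the dinucleotide on which most cytosine methylation of mammalian DNA lies. RefSeq starts on build GRCm38.p6 were matched by symbol for 8 of the 10 genes, all but Kirrel3 and Ncam1, with 11 windows in all. Each line gives the 250 bases before an annotated start, 5′ to 3′ on the gene's strand, with every CpG in capitals. The windows are Kirrel at chr3:87174538-87174787 (minus strand), Kirrel2 at chr7:30457516-30457765 (minus strand), Ncam2 at chr16:81200447-81200696 (plus strand), the second of the Cntn4 windows at chr6:106118692-106118941 (plus strand) and Alcam at chr16:52453082-52453331 (minus strand).
Kirrel: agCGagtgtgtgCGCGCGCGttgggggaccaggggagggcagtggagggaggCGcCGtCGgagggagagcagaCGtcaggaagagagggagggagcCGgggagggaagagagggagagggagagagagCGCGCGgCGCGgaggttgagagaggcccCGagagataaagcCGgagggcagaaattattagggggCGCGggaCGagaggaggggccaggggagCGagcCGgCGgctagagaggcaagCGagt
Kirrel2: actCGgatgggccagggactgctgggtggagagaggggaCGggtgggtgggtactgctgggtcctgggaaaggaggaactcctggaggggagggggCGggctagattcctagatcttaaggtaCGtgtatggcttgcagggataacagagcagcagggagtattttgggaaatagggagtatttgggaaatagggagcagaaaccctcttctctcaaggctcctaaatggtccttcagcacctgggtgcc
Ncam2: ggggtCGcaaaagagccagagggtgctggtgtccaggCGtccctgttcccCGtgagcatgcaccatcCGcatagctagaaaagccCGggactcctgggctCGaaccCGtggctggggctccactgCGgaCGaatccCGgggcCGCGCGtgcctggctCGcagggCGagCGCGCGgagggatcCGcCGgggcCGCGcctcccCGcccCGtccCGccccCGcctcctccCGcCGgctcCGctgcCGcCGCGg
Cntn4: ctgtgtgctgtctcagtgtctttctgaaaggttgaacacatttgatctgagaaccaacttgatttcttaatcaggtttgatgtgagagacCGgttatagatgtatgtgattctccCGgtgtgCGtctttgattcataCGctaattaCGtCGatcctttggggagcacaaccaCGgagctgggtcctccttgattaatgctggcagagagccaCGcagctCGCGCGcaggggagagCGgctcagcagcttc
Alcam: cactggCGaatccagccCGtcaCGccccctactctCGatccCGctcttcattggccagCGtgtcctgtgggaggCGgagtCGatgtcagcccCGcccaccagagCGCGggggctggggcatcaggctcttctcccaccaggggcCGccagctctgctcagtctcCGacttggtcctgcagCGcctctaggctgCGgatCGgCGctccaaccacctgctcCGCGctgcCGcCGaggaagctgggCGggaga
Kirrel2 and Ncam2 stood far apart in these windows. The Kirrel2 window held 4 CpG, fewer than the median of 6 over 32841 promoter windows of the table, and the Ncam2 window held 32, more than 95.4% of them had. Kirrel held 24, Alcam 22 and the printed Cntn4 window 12. The windows of these 4 lower genes thus spanned 2 CpG, in the other Cntn4 window, to 32. Those of Nfasc, Alcam, L1cam and Nrcam, not called lower, spanned 1, in a window of Nfasc, to 25 in Nrcam, so the ranges overlapped among the 8 genes with a window. Motifs were searched on both strands of the 300-base windows that reach 50 bases past the start. CCCNNGGG, a core of the sites bound by Ebf factors, was held by 13.7% of all windows, and 2.75% held at least 2. Among the 11 windows of the members it was found in that of Kirrel2 alone. Its 2 places there begin 19 and 43 bases into the transcribed part and do not overlap. TAATTA, a site type of homeodomain factors, was held by 5.29% of all windows and by the printed Cntn4 window, beginning 110 bases before the start. A match is a description of the letters and shows no binding.

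Of the 10 genes, 8 had a lower value in O/Tet3 than in mOSN and 2, Nrcam and Alcam, a higher one. A row was compared when its value reached 1 in either library, which 9 of the 10 did, with Nrcam below 1 in both. A row was called higher or lower at a 2-fold difference of value + 1. By that rule 5 of the 9 compared members were lower (Kirrel2, Kirrel3, Kirrel, Ncam2 and Cntn4), 0 were higher and 4 were neither. Of all 12943 compared rows, 12.0% were lower and 16.5% higher, or 15.1% lower and 11.3% higher once the median log2 ratio of 0.21 was subtracted, which left the members' counts at 5 and 0. The median log2 ratio was -1.09 over the 9 compared members and -0.88 over all 10, beside 0.21 over all compared rows. Kirrel3 was compared through mOSN alone, since its O/Tet3 value was below 1, and Nfasc likewise.

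**Figure D1:**
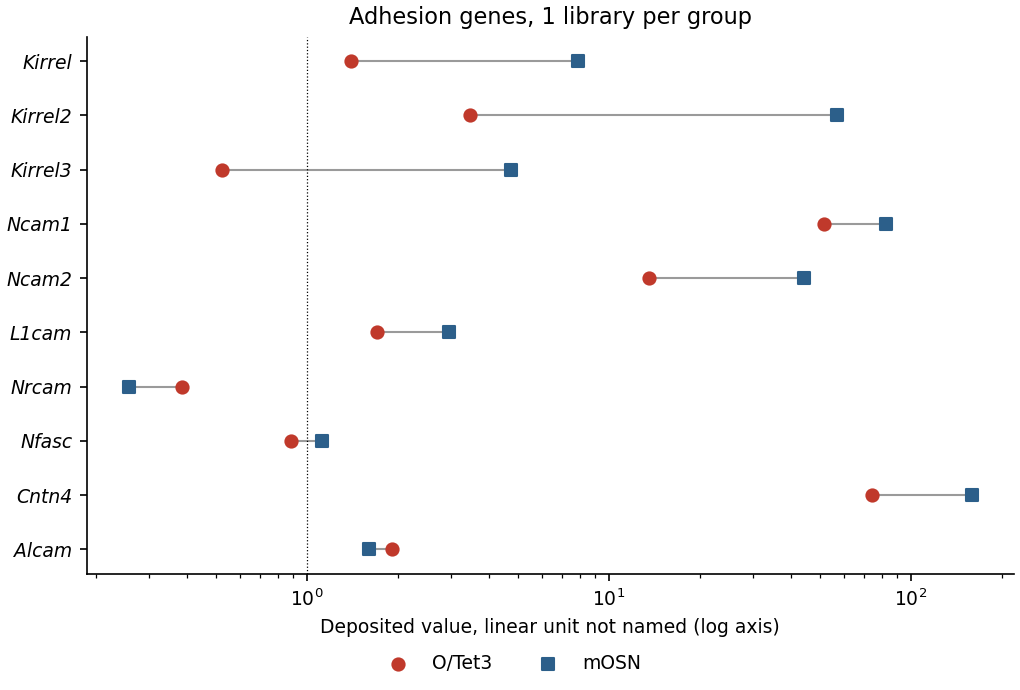
Deposited value of each of the 10 adhesion genes (x axis, log scale, linear unit not named) in the O/Tet3 library (circles) and the mOSN library (squares), 1 library per group; the dotted line marks a value of 1. The Kirrel genes show the widest gaps, Kirrel2 with 3.47 in O/Tet3 and 57.1 in mOSN, while the points of Nfasc, Nrcam and Alcam lie close together.

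The Kirrel family, relatives of the kidney slit diaphragm protein nephrin, was lower throughout. Kirrel2 was at 3.47 in O/Tet3 and 57.1 in mOSN, a 16.4-fold lower value in O/Tet3 (95% counting interval 13.0 to 21.3). Its log2 ratio of -3.70 was at rank 61 from the lowest among the 12943 compared rows. Ordered by level, Kirrel2 held rank 7660 of these rows in O/Tet3 and rank 356 in mOSN. The estimate rests on about 69.3 reads in O/Tet3 and 2148 in mOSN.

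Kirrel3, the partner of Kirrel2 in complementary expression among axons, was at 0.523 in O/Tet3 and 4.75 in mOSN, 9.07-fold lower (interval 5.04 to 20.1). Its log2 ratio of -1.92 understates this, because the added 1 exceeds the O/Tet3 value, and only about 10.4 reads stand behind that value. Kirrel, known as Neph1 and best known from the podocytes of the kidney, was at 1.39 in O/Tet3 and 7.89 in mOSN, 5.66-fold lower (interval 3.81 to 8.61). The counting intervals of Kirrel and Kirrel3 overlap each other, while that of Kirrel2 overlaps only that of Kirrel3. Within a library, Kirrel2 was 6.64-fold above Kirrel3 in O/Tet3 and 12.0-fold above it in mOSN, and 2.49-fold above Kirrel in O/Tet3 and 7.24-fold above it in mOSN. These ratios of levels between genes take the values as scaled to length.

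The genes most like Kirrel2 were taken as the 5 compared rows whose log2 values in the 2 libraries lay nearest to it, by Euclidean distance. The nearest was Ttll6, a tubulin tyrosine ligase-like enzyme, at 3.17 in O/Tet3 and 54.4 in mOSN, a distance of 0.12. Dnm1, encoding the endocytic GTPase dynamin 1, followed at 4.34 in O/Tet3 and 64.4 in mOSN (distance 0.31). The row 1700026J04Rik was at 3.66 in O/Tet3 and 42.7 in mOSN (distance 0.41). Sept3, a septin of neurons, and Slc24a4, the exchanger that ends the odour response, lay farther off at 0.64 and 0.66 and were 8.43-fold and 8.07-fold lower in O/Tet3. With only 2 libraries this is a likeness of levels and nothing more.

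The neural cell adhesion molecules stood among the higher values of the 10 genes, and their difference was unequal. Ncam1, the principal carrier of polysialic acid on neurons, was at 51.7 in O/Tet3 and 82.7 in mOSN, 1.60-fold lower (interval 1.49 to 1.72), and was not called at a log2 ratio of -0.67. Ncam2 was at 13.6 in O/Tet3 and 44.3 in mOSN, 3.25-fold lower (interval 2.86 to 3.71), with a log2 ratio of -1.63. The intervals of the pair do not overlap, so the larger difference of Ncam2 exceeds counting error. Ncam1 stood 3.80-fold above Ncam2 in O/Tet3 and 1.87-fold above it in mOSN. The genes for the enzymes that build polysialic acid, named after their values were seen, were near 0 in both libraries: St8sia2 was at 0.0151 in O/Tet3 and 0.0361 in mOSN, and St8sia4 at 0.0450 in O/Tet3 and 0.0439 in mOSN.

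Cntn4, a contactin held in the membrane by a lipid anchor, had the highest value of the 10 genes in each library. It was at 74.3 in O/Tet3 and 159 in mOSN, 2.14-fold lower (interval 2.02 to 2.27), and its log2 ratio of -1.09 was just past the size for a call. Omp, which encodes the olfactory marker protein, differed by the same factor, at 139 in O/Tet3 and 298 in mOSN. Cntn4 ranked 311 of the compared rows by level in O/Tet3 and 88 in mOSN.

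The L1 family has cytoplasmic tails that bind ankyrin, and its members L1cam, Nfasc and Nrcam differed by less than 2-fold at low values. L1cam, an axon growth and bundling molecule, was at 1.70 in O/Tet3 and 2.96 in mOSN, 1.74-fold lower (interval 1.18 to 2.65). Nfasc, encoding neurofascin of the axon initial segment and the node of Ranvier, was at 0.888 in O/Tet3 and 1.12 in mOSN, a ratio of 0.791 (interval 0.438 to 1.43). Nrcam, which takes part in axon guidance and node assembly, was at 0.385 in O/Tet3 and 0.257 in mOSN, a ratio of 1.50 (interval 0.517 to 4.24). At about 7.69 reads in O/Tet3 and 9.67 in mOSN, no difference of Nrcam was detectable at this depth. Chl1, the close homolog of L1 and not among the 10 genes, was named after its values were seen: it was below 1 in both libraries and so not compared, at 0.772 in O/Tet3 and 0.232 in mOSN, 3.33-fold higher. Alcam, an adhesion molecule that binds itself and CD6, was at 1.91 in O/Tet3 and 1.60 in mOSN, a ratio of 1.19 (interval 0.774 to 1.82). Counting error alone thus covers a ratio of 1 for 3 of the 10 genes, Nfasc, Nrcam and Alcam. The other 7 were lower in O/Tet3 by more than counting error.

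**Figure D2:**
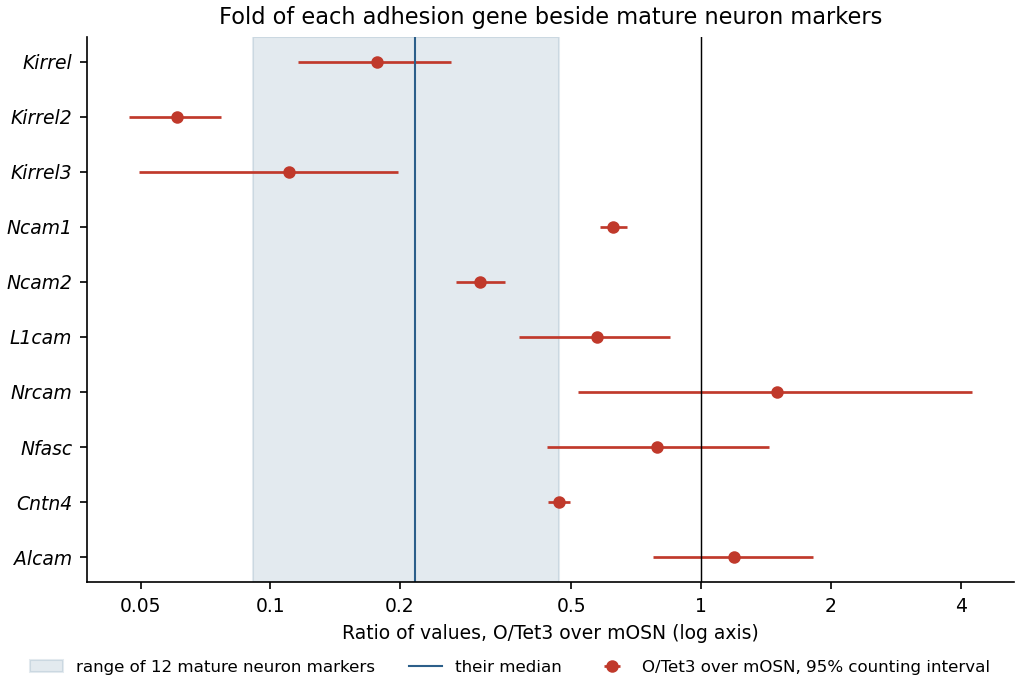
Ratio of values, O/Tet3 over mOSN, for each adhesion gene (points, log axis) with its 95% counting interval (bars), beside the range (shaded) and median (blue line) of the ratios of 12 mature neuron markers; the black line marks equal values. Kirrel2 lies below the shaded range at 0.0609, and Ncam1, L1cam, Nrcam, Nfasc and Alcam lie above it.

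All 3 Kirrel genes stood lower in the order of levels in O/Tet3 than in mOSN, while Alcam stood 3 places higher. Listed from the highest value, the order in O/Tet3 was Cntn4, Ncam1, Ncam2, Kirrel2, Alcam, L1cam, Kirrel, Nfasc, Kirrel3 and Nrcam. In mOSN the order was Cntn4, Ncam1, Kirrel2, Ncam2, Kirrel, Kirrel3, L1cam, Alcam, Nfasc and Nrcam. No spread over replicates is at hand to say which neighbours in these orders differ. The summed value of the 10 genes was 150 in O/Tet3 and 362 in mOSN, 2.41-fold lower. Cntn4, Ncam1 and Ncam2 together made up 93.1% of the sum in O/Tet3 and 79.1% in mOSN, whereas Kirrel2 made up 2.32% in O/Tet3 and 15.8% in mOSN.

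**Figure D3:**
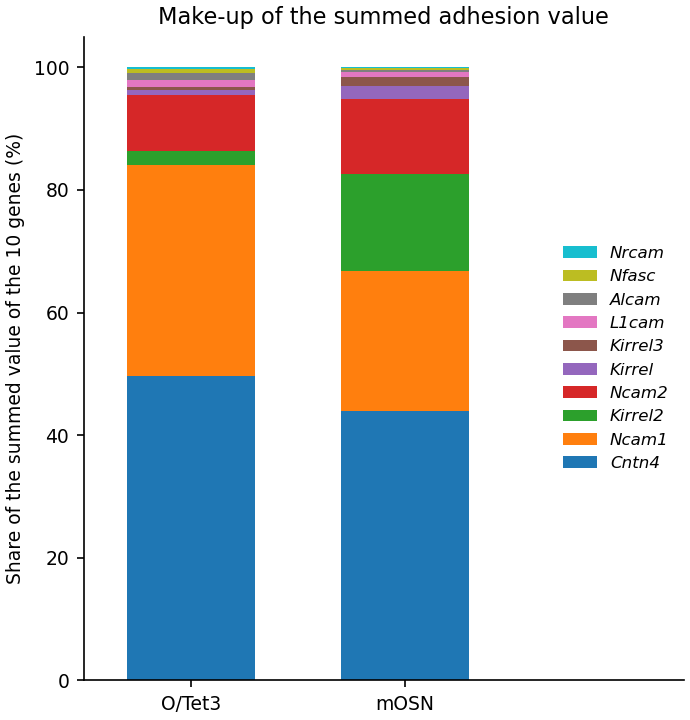
Share of the summed value of the 10 adhesion genes held by each gene (y axis, percent) in the O/Tet3 library (left bar) and the mOSN library (right bar). Kirrel2 fills 2.32% of the O/Tet3 bar and 15.8% of the mOSN bar, and Ncam1 34.5% of the O/Tet3 bar and 22.9% of the mOSN bar.

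The mature neuron markers were all lower in O/Tet3, while 5 of the 9 compared members were called lower. All 12 of 12 markers were called lower (100%, beside 12.0% of all compared rows). They include Omp, G protein, cyclase and channel genes of the odour response and the receptor transporters. Their median log2 ratio was -2.17, and their summed value was 778 in O/Tet3 and 3549 in mOSN. Their values were lower by 2.14-fold for Omp to 10.96-fold for Ric8b, with a median of 4.61-fold, so that Kirrel2 differed by more than each of the 12. Kirrel3, 9.07-fold lower (interval 5.04 to 20.1), and Kirrel, 5.66-fold lower (interval 3.81 to 8.61), also differed by more than that median. The interval of Kirrel includes the median, and the other compared members differed by less. Ric8b, which helps the olfactory G protein to fold and exchange nucleotide, was at 25.4 in O/Tet3 and 279 in mOSN, and Gng13, a G protein gamma subunit, at 9.63 in O/Tet3 and 91.9 in mOSN. Cnga2, a subunit of the odour-gated cation channel, was at 37.9 in O/Tet3 and 238 in mOSN, and the chloride channel gene Ano2 at 35.5 in O/Tet3 and 213 in mOSN. When log2 ratios were counted from the median of these markers, Kirrel2 stood at -1.53, Kirrel at 0.27, Kirrel3 at 0.25, Ncam2 at 0.54, Cntn4 at 1.08 and Ncam1 at 1.50. On that scale Kirrel2 is the only one of the 9 compared members that is lower, 5 are higher by the call rule, and of all compared rows 90.7% are higher and 0.827% lower. The added 1 shrinks the ratios of low values. Kirrel and Kirrel3 thus stand above the markers on that scale, although their folds by value exceeded the markers' median fold. In whole-population RNA, fewer cells of a type and less RNA per cell cannot be told apart.

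**Figure D4:**
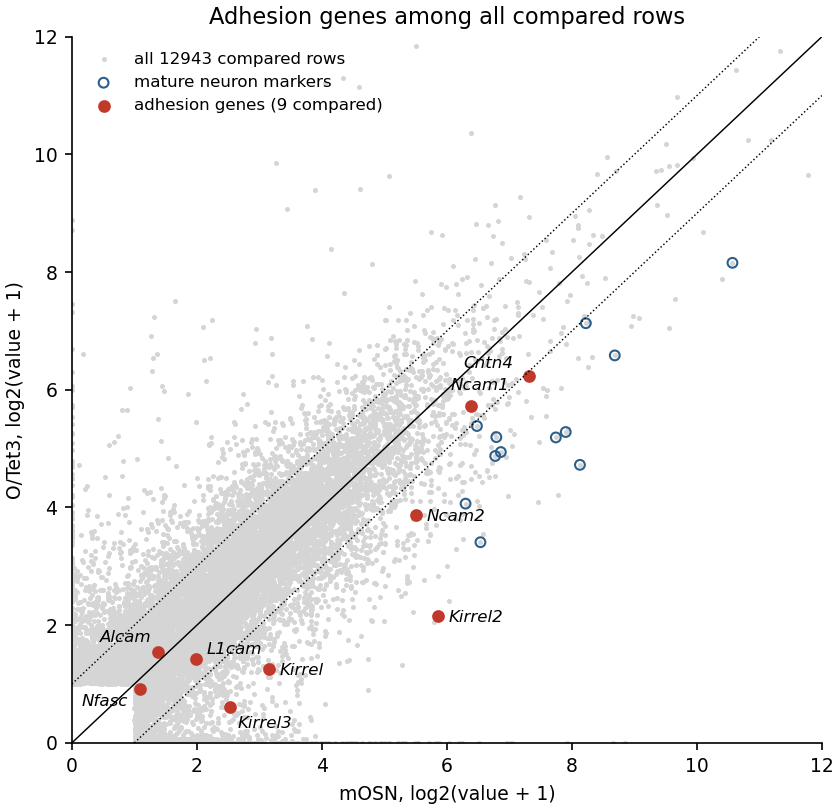
Each compared row by its log2(value + 1) in mOSN (x axis) and O/Tet3 (y axis), with the 9 compared adhesion genes in red and the 12 mature neuron markers as open blue circles; the solid line marks equality, the dotted lines 2-fold, and 15 rows above 12 lie outside the axes. Kirrel2 lies farthest below the diagonal of the red points, and Alcam and Nfasc lie near it.

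Markers of other cells were set beside them, and their part in the result was not tested. Of 12 immature neuron markers, 5 were higher in O/Tet3 (41.7%, beside 16.5% of all compared rows), 1 was lower (8.33%, beside 12.0%) and 6 were neither (summed value 204 in O/Tet3 and 118 in mOSN), with the growth cone gene Gap43 at 34.8 in O/Tet3 and 6.41 in mOSN, Stmn1 at 34.7 in O/Tet3 and 6.72 in mOSN and Sox11 at 6.05 in O/Tet3 and 0.383 in mOSN. Dpysl5 was the lower one, at 1.46 in O/Tet3 and 7.98 in mOSN. Sox11 was compared through O/Tet3 alone, so that the floor favours its call. Tubb3, at 13.7 in O/Tet3 and 23.6 in mOSN, and Crmp1, at 3.87 in O/Tet3 and 7.83 in mOSN, named after their values were seen, were not called and had lower values in O/Tet3. Of 8 progenitor markers, 2 were compared and neither was called, Pcna at 33.1 in O/Tet3 and 18.4 in mOSN and Kit at 1.73 in O/Tet3 and 0.741 in mOSN. The 7 sustentacular markers summed to 11.2 in O/Tet3 and 27.3 in mOSN. Of the 5 compared, 1 was lower (beside 12.0% of all compared rows) and 0 were higher. The lower one was Ugt2a1, at 2.53 in O/Tet3 and 15.6 in mOSN, which made up most of the mOSN sum. Sec14l3, named after its values were seen, was not called and had a higher value in O/Tet3, at 5.38 there and 4.79 in mOSN. The 7 markers of ensheathing glia, cells that wrap olfactory axons, summed to 6.37 in O/Tet3 and 15.6 in mOSN. Fabp7 was at 0.0607 in O/Tet3 and 4.78 in mOSN, and S100b, Sox10 and Frzb were listed at 0 in O/Tet3. Blood and vessel markers summed to 39.5 in O/Tet3 and 60.1 in mOSN, nearly all of it from hemoglobin genes, with the endothelial genes Cldn5 and Cdh5 listed at 0 in both. Basal, gland and microvillous markers summed to 3.44 in O/Tet3 and 3.77 in mOSN, and 5 of the 7 were listed at 0 in O/Tet3. Of the 3 compared, 1 was higher (33.3%, beside 16.5% of all compared rows) and 2 were lower (66.7%, beside 12.0%). Pou2f3 of microvillous cells was higher, at 2.90 in O/Tet3 and 0.582 in mOSN. Ascl3 and Cftr were lower, listed at 0 in O/Tet3 and at 1.58 and 1.02 in mOSN. Pou2f3 was compared through O/Tet3 alone and the other 2 through mOSN alone, so that the floor favours their calls.

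Of 42 other immunoglobulin adhesion genes, 22 were compared, 5 were lower (22.7%, beside 12.0% of all compared rows) and 3 higher (13.6%, beside 16.5%), with a median log2 ratio of 0.08. Among the lower ones, Igsf3 was at 1.76 in O/Tet3 and 6.70 in mOSN, 3.81-fold lower. The others, named after their values were seen, include the Down syndrome cell adhesion molecule genes, Dscam at 2.16 in O/Tet3 and 6.12 in mOSN and Dscaml1 at 0.395 in O/Tet3 and 2.35 in mOSN. Sdk1, a sidekick adhesion molecule, was at 3.54 in O/Tet3 and 9.26 in mOSN. Cntn1, a contactin like Cntn4, was at 5.31 in O/Tet3 and 0.853 in mOSN, 6.23-fold higher. Cadm2, a synaptic adhesion molecule, was at 1.92 in O/Tet3 and 0.0560 in mOSN, and Mcam was at 2.03 in O/Tet3 and 0.0800 in mOSN. The mOSN values of Cadm2 and Mcam are near the worth of a few receptor reads. All 3 higher genes were compared through O/Tet3 alone and Dscaml1 through mOSN alone, so that the floor favours their calls; with a floor of 5, 1 was higher and 3 lower. Nphs1, which encodes nephrin and lies next to Kirrel2 on chromosome 7, was at 1.62 in O/Tet3 and 4.26 in mOSN and just past the call at -1.01.

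Among 30 partners and modifiers of the members, 21 were compared, 5 were lower (23.8%, beside 12.0% of all compared rows) and 1 higher (4.76%, beside 16.5%), with a median log2 ratio of -0.31. Spnb4, the beta spectrin that ties ankyrin to actin at the axon initial segment, was at 1.22 in O/Tet3 and 11.2 in mOSN. Ptprz1, a receptor phosphatase that binds contactins and Ncam1, was at 0.0299 in O/Tet3 and 1.86 in mOSN. Bace1, a protease that cleaves membrane proteins of axons, was at 5.11 in O/Tet3 and 14.6 in mOSN. The gene higher in O/Tet3 was Prnp, the prion protein gene, whose product binds Ncam1: it was at 1310 in O/Tet3 and 82.4 in mOSN, 15.9-fold higher, and above Omp in O/Tet3.

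Of 14 other genes of olfactory axon sorting, 13 were compared, 4 were lower (30.8%, beside 12.0% of all compared rows) and 2 higher (15.4%, beside 16.5%), with a median log2 ratio of -0.63. Sema7a, a membrane-linked semaphorin, was at 0.854 in O/Tet3 and 25.6 in mOSN, 29.9-fold lower, and Plxna1, a semaphorin receptor, at 2.53 in O/Tet3 and 23.7 in mOSN, 9.37-fold lower. Sema3a, a repulsive guidance cue, was at 6.83 in O/Tet3 and 0.902 in mOSN, and the protocadherin gene Pcdh10 at 28.2 in O/Tet3 and 8.51 in mOSN. Like Ptprz1 above, Sema7a was compared through mOSN alone, and Sema3a through O/Tet3 alone. No test sets the adhesion genes apart from these lists.

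**Figure D5:**
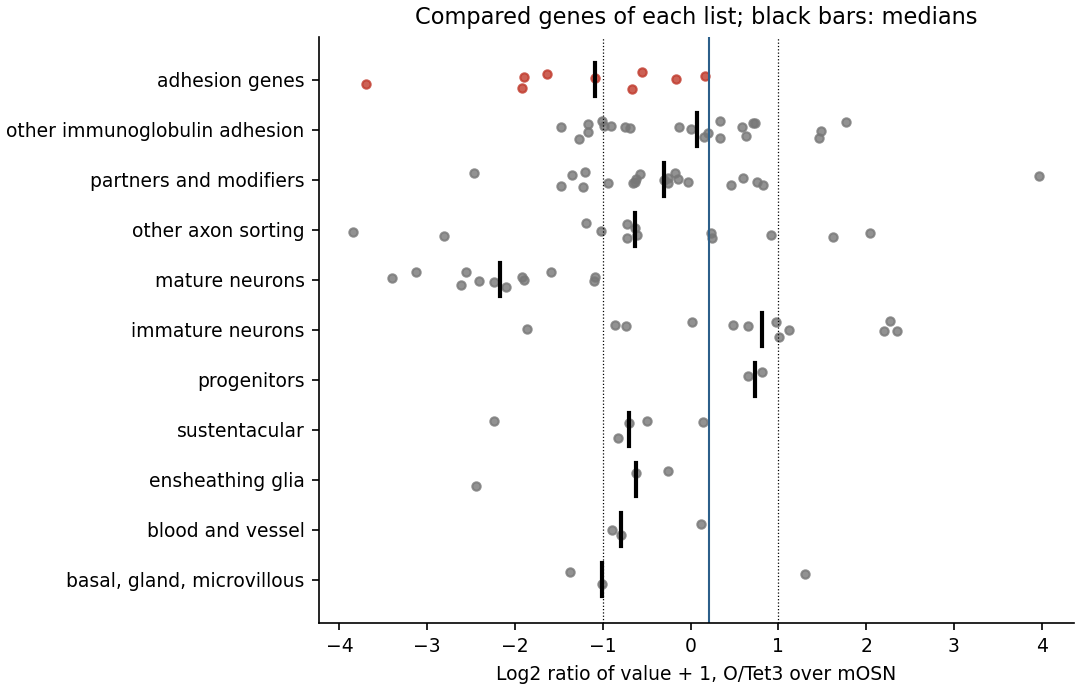
Log2 ratio of value + 1, O/Tet3 over mOSN (x axis), of each compared gene in each list (rows), with list medians as black bars, the median of all compared rows as a blue line and 2-fold as dotted lines. The adhesion genes (red) have a median of -1.09, between the mature neuron markers at -2.17 and the other immunoglobulin adhesion genes at 0.08.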

How the data were processed

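Per the labels' protocols, RiboMinus removed ribosomal RNA from the RNA of sorted cells, and ScriptSeq libraries were amplified by PCR. Bowtie, Bowtie2, Cuffdiff and build mm9 are named in the submitters' processing notes, without roles or versions; annotation and strand setting are not given in the sources used here, so reads of overlapping or antisense genes could not be separated. The authors' deposited table holds log2(value + 1) per library and the log2 ratio, which equals O/Tet3 minus mOSN within 8e-14. With the logarithm undone, 99.3% of O/Tet3 and 99.4% of mOSN values had no more than 6 significant digits (relative tolerance 1e-09), as Cuffdiff prints FPKM. Columns were assigned by their names. Total depth is not in the table. The worth of 1 read came from the most frequent ratio of 5514 low rows, shared by 179 rows against 13 in a median window, and from the lowest step of 1096 receptor genes.

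Values were analysed with Python 3.11.15, numpy 2.4.6, pandas 2.3.3 and scipy 1.17.1; the steps were tested on simulated data. Members and lists were chosen with earlier results of these data known. Named genes are the 10 members, Tet3, Omp, up to 4 compared genes per list with the largest log2 ratio in size, and the 5 rows nearest to the member with the largest ratio; exceptions are stated. Alternatives changed the pseudocount, floor, size of call, treatment of rows at 0 and scaling. Protein sequences were not analysed here, and 1 listed marker is not reported here.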

Additional observations from a re-analysis of the deposited data

How the results depend on the processing

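No replicate could be left out. No paired analysis was possible because there is a single library on each side. A median was counted as moved when it shifted by more than 0.1, a count by more than 1.5 times. Of 112 recomputed counts and medians 79 were not moved, and of 68 log2 ratios of single members 59 kept their call, among them Alcam, which was not called and went to -0.042 when centred on all rows. Both tallies include entries that could not change. A floor or the treatment of rows at 0 cannot alter a single member's ratio, and the size of call cannot alter a median. The 5 members lower and 0 higher were also found with a pseudocount of 0.1, where 15.6% of all compared rows were lower, and with no pseudocount, where 13.1% were. Dropping the floor could not alter any count of calls: rows below 1 in both libraries differ by less than 2-fold once 1 is added. Leaving out rows listed at 0 could not alter the members' counts either, because no member was listed at 0. The member median was -1.63 among members that reach 5, -0.88 without any floor, and -1.29 when centred on all rows. Centring on mature neuron markers gave 5 members higher and 1 lower and a median of 1.08. The higher ones were Alcam at 2.33, Nfasc at 2.00, L1cam at 1.61, Ncam1 at 1.50 and Cntn4 at 1.08. Kirrel was at 0.27, Kirrel3 at 0.25 and Ncam2 at 0.54. This scaling adds 2.17 to every ratio by construction. The signs of Kirrel and Kirrel3 on it also rest on the added 1. With no pseudocount and no centring, Kirrel was at -2.50 and Kirrel3 at -3.18. No setting combined centring on the markers with another pseudocount. At 3-fold, Cntn4 at -1.09 was no longer called. Higher and lower rows over the table numbered 1401 and 793 with a floor of 5, 745 and 673 at 3-fold, and 11736 and 107 centred on mature markers. Centring on all rows, which subtracts 0.21, gave 1464 higher and 1953 lower, so that 42.8% of called rows were higher in place of 57.9%. For other immunoglobulin adhesion genes, 8 were lower with no pseudocount; 1 was higher and 3 lower with a floor of 5; 1 was higher and 0 lower at 3-fold; the median was -0.13 centred on all rows; and 18 were higher and 0 lower, with a median of 2.24, centred on mature markers. For partners, the median was -0.44 at a floor of 5, -0.20 when all 30 entered and -0.51 centred on all rows, 1 was lower at 3-fold, and 16 were higher and 0 lower (median 1.86) centred on mature markers. For other axon sorting genes, 2 were lower at 3-fold, the median was -0.84 centred on all rows, and 10 were higher and 1 lower (median 1.54) centred on mature markers. Where no construction is named, the cause was not tested. Depth limits Nrcam, Nfasc and Kirrel3 in O/Tet3, at about 7.69, 17.7 and 10.4 reads.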

Other observations

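The protein-coding genes that flank each member on its chromosome, by the RefSeq order of GRCm38.p6, did not share one direction. They are the nearest genes on each side that do not overlap the member and whose symbol has a row. Genes without a matching row were passed over. The flanking genes were looked up after the members' values were seen. Of 20 flanking genes, 12 were compared, 3 were higher, 3 lower and 6 neither, with a median log2 ratio of -0.21. Of all compared rows, 16.5% were higher and 12.0% lower. Cd1d1, beside Kirrel, was compared through O/Tet3 alone, at 2.19 there and listed at 0 in mOSN. Lrrn2 was compared through mOSN alone, so that the floor favours the calls of both. Kirrel2 lies between Aplp1, an amyloid precursor relative at 64.6 in O/Tet3 and 101 in mOSN, and Nphs1. Both genes beside Ncam1 on chromosome 9 were higher in O/Tet3 while Ncam1 had a lower value there: Ttc12 was at 3.87 in O/Tet3 and 1.40 in mOSN, and Pts, an enzyme of tetrahydrobiopterin synthesis, at 11.3 in O/Tet3 and 3.65 in mOSN. Beside Nfasc on chromosome 1, Lrrn2 was at 0.0603 in O/Tet3, near the worth of 1 receptor read, and at 1.13 in mOSN. Beside L1cam on chromosome X, Pdzd4 was 2.91-fold lower, at 1.76 in O/Tet3 and 5.13 in mOSN.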
